A study of Mus musculus with 6 samples.

Results

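The bone morphogenetic protein (BMP) pathway was followed through 9 genes in retinoic acid-treated embryoid bodies grown from mouse induced pluripotent stem cells (iPSCs). The genes were Bmp4, Bmp7, Bmpr1a, Smad1, Smad6, Id1, Id2, Id3 and Id4. They were chosen by name for their place in the pathway, with earlier results of these data known. They make up 9 of the 50686 gene identifiers with a count, and all 9 were among the 16729 genes that passed the filter on low counts and were tested. RNA sequencing covered 3 samples exposed to intermittent compressive force (ICF) and 3 control samples without load. In both groups, iPSCs reprogrammed from mouse gingival fibroblasts had formed embryoid bodies, received retinoic acid and been placed on gelatin-coated plates before the medium was changed to a serum-free one. The ICF group was then loaded in it with 1.5 g per square centimetre at 0.23 Hz, and RNA was taken at 24 h. The labels number the samples donor 1 to 3 in each group, while the methods describe independent experiments and 1 source of iPSCs. The p-values therefore measure the spread between these samples, and whether it holds differences between animals is not given in the sources used here. Feeder cells were removed by selective trypsinization before the embryoid bodies were formed.

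BMPs are secreted ligands of the TGF-β superfamily. They bind paired type I and type II receptor kinases, and the type I receptor phosphorylates Smad1, Smad5 and Smad9. These join Smad4 and enter the nucleus, where the Id genes are among their best known direct targets. Id proteins have a helix-loop-helix domain but no DNA-binding region, so they hold E proteins and other partners away from E-box DNA. In mouse embryonic stem cells, BMP4 acting through Id genes is known to help hold back neural differentiation, and in embryos BMP4 is needed to form mesoderm.

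The depth, as reads assigned to genes, ran from 28711166 to 34194413 per sample. In ICF sample 3, 89.0% of the counts above 0 could be divided by 4, whereas 20.3% to 21.5% could elsewhere. Sample 3 of each group also stood further from the other samples of its group than these did from each other, with a median chi-square per gene of 2.67 to 4.85 against 0.963 and 1.04. Where a result of the 9 genes leaned on sample 3, its value without that sample is therefore given as well. The counts of ICF sample 3 may therefore stand for fewer reads than they show, and the edgeR test was repeated with them divided by 4. The origin of these steps was not tested. Pluripotency genes were high in both groups, with Pou5f1 at 840.7 CPM (counts scaled to a common library size) in the control and at 816.9 CPM under ICF, and Nanog at 352.7 and 323.7 CPM. Pdgfra, a mesenchymal and primitive endoderm gene, was also present at 177.9 and 182 CPM. Of the other mesenchymal markers, Vim was at 163.1 and 179.8 CPM and Col1a1 at 15.3 and 25.6 CPM. The rest had lower group means than Col1a1, and Lum had at most 4 counts in any sample. Of the mesoderm markers, Hand1 was at 41.9 and 38.5 CPM and Eomes at 31.3 and 27.1 CPM. Tbx6 was low at 1.24 and 0.66 CPM and Mixl1 at 0.46 and 0.61 CPM, and T and Mesp1 were too low to be tested. Of the endoderm markers, Gata4 was at 173 and 177.1 CPM, Gata6 at 96.2 and 109.4 CPM and Sox17 at 68.8 and 54.25 CPM, with the others lower. The highest of the neural markers was Tubb3 at 75.8 and 64.8 CPM. The label of pluripotent stem cells was thus met by its markers in every sample, with RNA of further cell types present. Retinoic acid had been given, per the paper, to guide the embryoid bodies towards immature mesenchymal cells.

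The start regions of the 3 genes whose groups did not overlap (Id3, Id4 and Smad6, described further on) and of the ligand Bmp4 are shown, because Smad and helix-loop-helix proteins are known to bind short motifs near such genes. The windows run from 250 bases before to 50 bases after the RefSeq start site in GRCm38.p6, and 7 of the 9 genes had one in the table used. Searched on both strands were the GC-rich Smad motif GGCGCC, the Smad motif CAGAC and the E-box CANNTG, which do not overlap in these matches. GGCGCC was present in the windows of 3 of the 7 genes (Id2, Id4 and Bmpr1a) and in 11.9% of all 32851 windows. CAGAC was present in 1 of the 7, Id3, and in 49.6% of all windows. CANNTG was present in 3 of the 7 (Id2, Bmp4 and Smad6) and in 72.3% of all windows. A match describes the letters only. For Id3, whose 250 bases before the start all overlap annotated exons, just the matches with 10 bases on either side are given. The later one lies on the opposite strand. All sequences run 5′ to 3′ on the strand of the gene, with matches in capitals.
Id3, 167 bases before the start, chr4:136143645-136143669, plus strand: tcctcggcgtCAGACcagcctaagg
Id3, 68 bases before the start, chr4:136143744-136143768, plus strand: acccttggcgGTCTGttttgaataa
For Id2, 161 of the 250 bases before the start overlapped annotated exons, and the match to GGCGCC lay within the annotated span of the gene.
Id2, 231 bases before the start, chr12:25096308-25096333, minus strand: aggccccctgGGCGCCcagcgcacac
The 250 bases before the start of Id4, Bmp4 and Smad6 overlapped no annotated exon. That of Id4 held 75.6% G and C and 1 match to GGCGCC, that of Bmp4 held 3 E-boxes, and that of Smad6 held no match, its E-box lying after the start.
Id4, chr13:48260866-48261115, plus strand: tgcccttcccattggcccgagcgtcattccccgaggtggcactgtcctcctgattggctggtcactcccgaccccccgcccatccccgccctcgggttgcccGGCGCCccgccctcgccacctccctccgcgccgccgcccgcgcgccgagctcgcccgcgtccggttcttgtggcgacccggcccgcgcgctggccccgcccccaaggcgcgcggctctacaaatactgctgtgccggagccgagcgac
Bmp4, chr14:46390670-46390919, minus strand: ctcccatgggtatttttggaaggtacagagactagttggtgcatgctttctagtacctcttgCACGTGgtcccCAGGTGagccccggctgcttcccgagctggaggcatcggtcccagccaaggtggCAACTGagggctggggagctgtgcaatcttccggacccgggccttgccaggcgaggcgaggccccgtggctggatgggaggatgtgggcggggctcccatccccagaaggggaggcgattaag
Smad6, chr9:64022060-64022309, minus strand: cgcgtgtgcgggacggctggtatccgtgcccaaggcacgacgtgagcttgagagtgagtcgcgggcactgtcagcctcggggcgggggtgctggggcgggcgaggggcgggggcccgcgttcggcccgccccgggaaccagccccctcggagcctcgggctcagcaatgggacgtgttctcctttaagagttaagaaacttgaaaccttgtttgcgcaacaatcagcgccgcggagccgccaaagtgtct

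To ask whether compression changed the pathway, ICF was compared with the control for each gene. Id3 rose with ICF by 1.37-fold and was the only one of the 9 genes to pass the test, which was edgeR's quasi-likelihood test with Benjamini-Hochberg adjustment over all genes tested and a threshold of 0.05. None of the 9 was lower by this test or by DESeq2, and 1, Smad6, was lower at an unadjusted p under 0.05. Id4 joined Id3 among the higher genes at that unadjusted p. Over all genes tested, 3.47% were higher and 4.38% lower by edgeR's adjusted p, and 12.4% higher and 13.2% lower at the unadjusted p. DESeq2 called 5.95% higher and 7.26% lower of the genes to which it gave an adjusted p. With the donor number as a block, which compares samples of the same number, Id2, Id3 and Bmp4 were higher and Smad6 was lower. In that fit 14.6% of all genes were higher and 15.3% lower. Every ICF sample lay above every control sample for Id3 and Id4, and below for Smad6, which 15.6% and 15.7% of all genes also did. The 9 log2 fold changes ranged from -0.33 to 0.46 with a median of 0.069, beside a median of 0.0026 over all genes tested. In whole constructs, fewer cells of a type and less RNA per cell cannot be told apart.

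**Figure D1:**
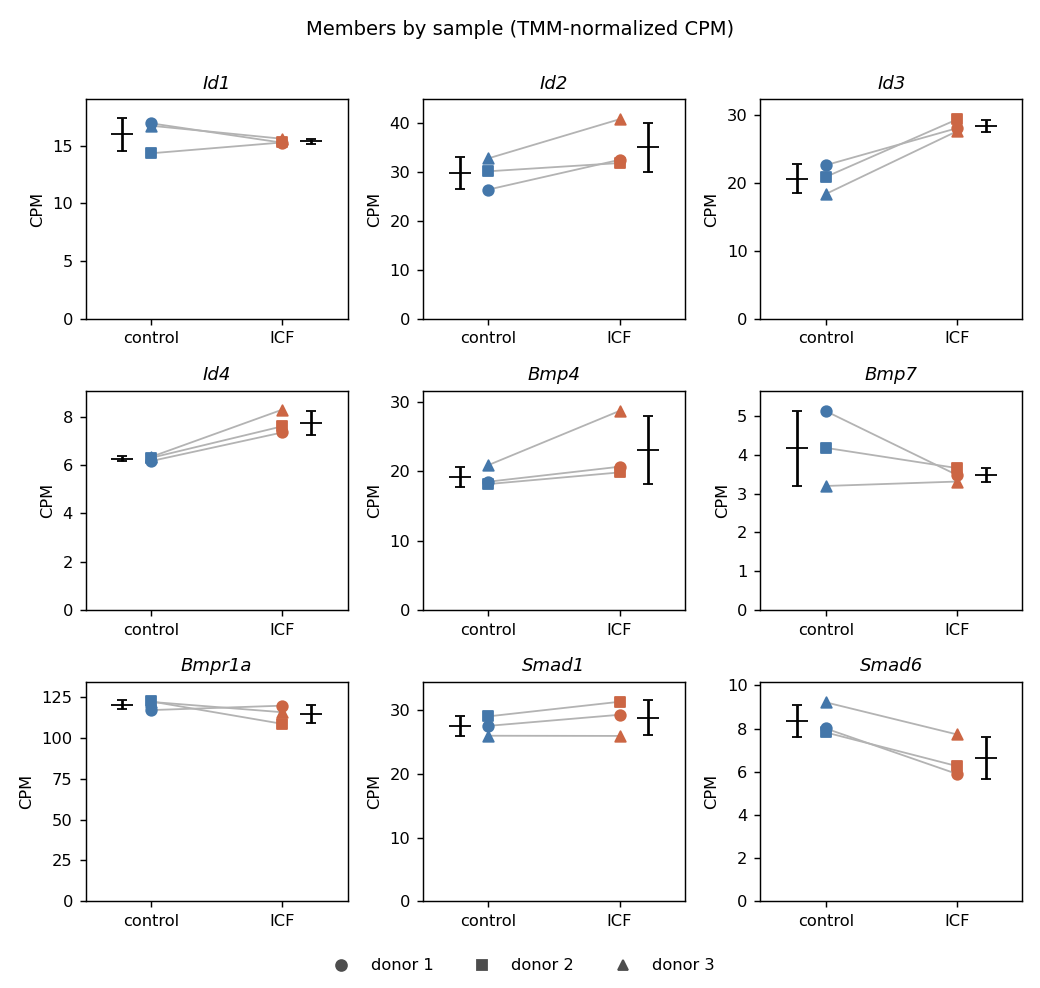
Level of each of the 9 genes in CPM after TMM normalization in the 3 control (blue) and 3 ICF (red) samples, with grey lines joining samples of the same donor number and bars giving the mean ± SD. The groups are apart for Id3, Id4 and Smad6 and overlap for the other 6 genes.

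Bmp4 encodes the ligand that patterns early mesoderm. It lies on chromosome 14 from 46383520 to 46390669 (ENSMUSG00000021835). All levels of single genes are CPM after TMM normalization, and all coordinates are those of GRCm38 as annotated by GENCODE M21. Bmp4 was at 18.51, 18.17 and 20.91 CPM in control samples 1, 2 and 3 and at 20.67, 19.85 and 28.72 CPM in ICF samples 1, 2 and 3. ICF sample 3 was the highest of all, and the other ICF samples lay below the highest control. The means were 19.2 ± 1.49 (SD, n = 3) and 23.1 ± 4.90 CPM (SD, n = 3). The log2 fold change of 0.26 (95% interval -0.061 to 0.59) did not pass the edgeR test (adjusted p = 0.29). With the donor block it was 0.25 and passed (edgeR, adjusted p = 0.017), each ICF sample being above the control of its number. Without ICF sample 3 the log2 fold change fell to 0.085, so its size rested largely on that sample.

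Bmp7, a ligand best known from kidney, eye and skeletal development, lies on chromosome 2 from 172868012 to 172940321 (ENSMUSG00000008999). It was the lowest of the 9 genes per length of exons, and stood at 5.132, 4.184 and 3.2 CPM in the control and 3.484, 3.662 and 3.314 CPM under ICF. The control samples spanned the whole range of the ICF samples. On the log2 scale the change was -0.26 (95% interval -0.68 to 0.17, edgeR, adjusted p = 0.43), and it did not pass with the donor block either (edgeR, adjusted p = 0.26). It was -0.085 without control sample 1 and -0.42 without control sample 3. With donor 3 left out of both groups it was -0.38 (edgeR, adjusted p = 0.054). These values rest on 92 to 150 counts per sample, and the 96 of ICF sample 3 may stand for fewer reads.

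Bmpr1a encodes the type I receptor that BMP4 uses in the early embryo, and lies on chromosome 14 from 34410734 to 34503341 (ENSMUSG00000021796). It had the highest level of the 9 genes per length of exons, which under ICF depends on the length used. It stood at 116.9, 122.2 and 121.9 CPM in the control and 119.6, 108.5 and 115.6 CPM under ICF. The ranges overlapped, and the ICF sample of donor 1 was above its control while those of donors 2 and 3 were below. Its log2 fold change was -0.071 with a 95% interval of -0.21 to 0.066 (edgeR, adjusted p = 0.51). It did not pass with the donor block either (edgeR, adjusted p = 0.33).

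Smad1 encodes a transducer that the type I receptors phosphorylate, and lies on chromosome 8 from 79338395 to 79399518 (ENSMUSG00000031681). It was at 27.54, 29.03 and 25.99 CPM in the control and at 29.28, 31.32 and 25.96 CPM under ICF. The samples of donor 3 were the lowest in both groups, and the ranges overlapped. The estimate for Smad1 was 0.069 on the log2 scale (95% interval -0.14 to 0.27, edgeR, adjusted p = 0.68), and 0.067 with the donor block (edgeR, adjusted p = 0.52). For both Bmpr1a and Smad1 the intervals left no room for a change as large as the 0.46 seen for Id3.

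Smad6 encodes the inhibitory Smad that competes within the BMP branch and is itself known as a target of that branch. It lies on chromosome 9 from 63953076 to 64022059 (ENSMUSG00000036867). It was at 8.006, 7.825 and 9.218 CPM in the control and at 5.902, 6.265 and 7.732 CPM under ICF. Every ICF sample lay below every control sample, although ICF sample 3 was close to the lowest control. The means were 8.35 ± 0.76 (SD, n = 3) and 6.63 ± 0.97 CPM (SD, n = 3). The log2 fold change of -0.33 (95% interval -0.65 to -0.014) did not pass the edgeR test (adjusted p = 0.18). With the donor block it was -0.34 and passed (edgeR, adjusted p = 0.025), and with donor 3 left out of both groups it was -0.38 and passed without a block (edgeR, adjusted p = 0.017). That last fit called 2627 of 16893 genes lower, against 733 of 16729 with all samples. The log2 ratios within donors 1, 2 and 3 were -0.44, -0.32 and -0.25. Relative to Smad1, per length, Smad6 stood at 0.568, 0.527 and 0.693 in control samples and at 0.394, 0.391 and 0.582 under ICF, a ratio chosen after the levels were seen. The ranges of this ratio overlapped through ICF sample 3 (exact two-sided permutation test, p = 0.3).

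**Figure D2:**
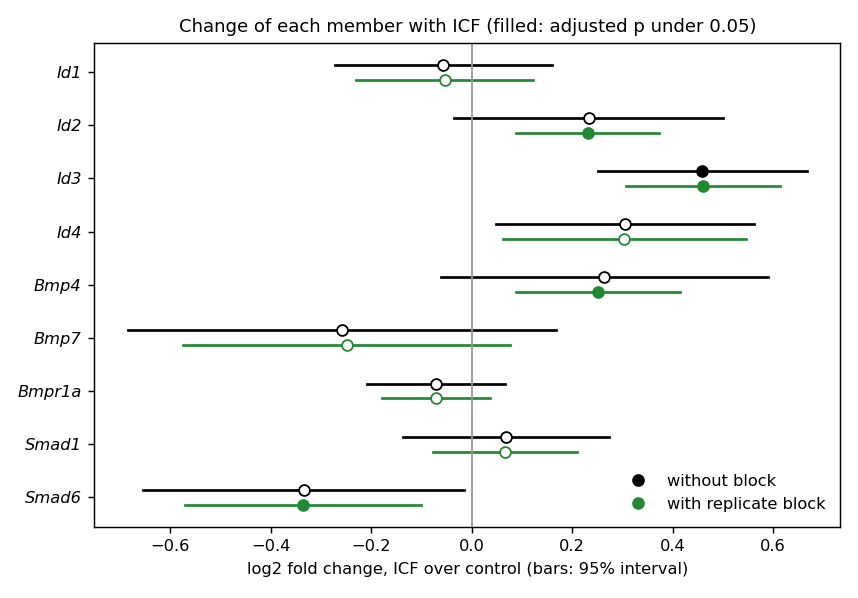
Log2 fold change of each of the 9 genes, ICF over control, with its 95% interval from edgeR without a block (black) and with the donor number as a block (green), where filled points passed at an adjusted p under 0.05. Id3 at 0.46 is filled in both fits, Id2, Bmp4 and Smad6 are filled with the block, and the estimates hardly move between the fits.

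The Id genes encode the dominant negative helix-loop-helix proteins at the receiving end of the pathway. Their summed level was 71.67 to 74.23 CPM in the control samples and 83.18 to 92.31 CPM under ICF. The sum was thus higher in each ICF sample than in any control sample, and the 4 genes contributed to it unequally.

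Id3 lies on chromosome 4 from 136143497 to 136145755 (ENSMUSG00000007872). It was at 22.62, 20.89 and 18.37 CPM in the control and at 28.07, 29.36 and 27.62 CPM under ICF. The lowest ICF sample exceeded the highest control sample by more than the ICF samples differed among themselves. The means were 20.6 ± 2.14 (SD, n = 3) and 28.4 ± 0.90 CPM (SD, n = 3), on 528 to 661 and 800 to 975 counts per sample, the 800 being those of ICF sample 3. This was a log2 fold change of 0.46 (SE 0.092, 95% interval 0.25 to 0.67, edgeR, adjusted p = 0.021), with rank 635 among all genes by p. The log2 ratios within donors 1, 2 and 3 were 0.31, 0.49 and 0.59. All 3 pairs moved the same way, and with the donor block the adjusted p was 1.4e-05 (edgeR). Leaving out control sample 2, ICF sample 1 or ICF sample 2 kept the log2 fold change at 0.47, 0.47 and 0.44 but raised the adjusted p to 0.10, 0.075 and 0.072 (edgeR). With donor 3 left out of both groups it was 0.40 and passed (edgeR, adjusted p = 0.00026), and it passed too with the counts of ICF sample 3 divided by 4 (edgeR, adjusted p = 0.017).

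Id1, a classical direct BMP target, lies on chromosome 2 from 152736251 to 152737410 (ENSMUSG00000042745). It was at 16.94, 14.34 and 16.73 CPM in the control and at 15.26, 15.28 and 15.6 CPM under ICF. The ICF samples were tightly grouped inside the range of the control. Its log2 fold change was -0.057 (95% interval -0.27 to 0.16, edgeR, adjusted p = 0.75), and -0.054 with the donor block (edgeR, adjusted p = 0.68). The upper end of its interval lay below the lower end of that of Id3 at 0.25.

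Id2 lies on chromosome 12 from 25093799 to 25097140 (ENSMUSG00000020644). It was at 26.41, 30.15 and 32.8 CPM in the control and at 32.5, 31.84 and 40.8 CPM under ICF. The groups overlapped, since control sample 3 was above ICF samples 1 and 2. Each ICF sample nevertheless lay above the control of its number, with log2 ratios of 0.30, 0.078 and 0.31. Without the block, the log2 fold change of 0.23 did not pass the edgeR test (95% interval -0.035 to 0.50, adjusted p = 0.26). It passed with the donor block (95% interval 0.088 to 0.37, edgeR, adjusted p = 0.011). Without ICF sample 3 the log2 fold change was 0.12.

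Id4, known for roles in neural and germ cell precursors, lies on chromosome 13 from 48261228 to 48266026 (ENSMUSG00000021379). It was at 6.159, 6.292 and 6.331 CPM in the control and at 7.342, 7.596 and 8.285 CPM under ICF. Every ICF sample was above every control sample, and the control samples barely differed. The log2 fold change of 0.31 (95% interval 0.048 to 0.56) did not pass the edgeR test (adjusted p = 0.13), nor with the donor block (edgeR, adjusted p = 0.051). These values rest on 180 to 255 counts per sample, and the 240 of ICF sample 3 may stand for fewer reads. No 75-base stretch of any of the 9 genes occurred in another gene on the same strand. Counting either strand, 0.954% of those of Id4, 0.754% of Bmp4 and 3.67% of Bmpr1a also matched an overlapping gene, and whether the counting used strand is not given in the sources used here.

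The make-up of the family was compared per length, as CPM per kilobase of exons, since transcripts of the 4 genes differ in length. Id3 made up 31.8%, 30.7% and 25.8% of the summed Id level in the control samples and 35.6%, 36.8% and 32.3% under ICF. Id1 made up 36.8%, 32.5% and 36.3% in control samples, but 29.9%, 29.5% and 28.2% under ICF. Id3 thus had a larger share and Id1 a smaller share in every ICF sample than in any control sample. The mean share of Id3 differed by 5.44 percentage points and that of Id1 by -6.01 percentage points. Without control sample 3, which had the lowest share of Id3, the difference for Id3 was 3.61 percentage points, and without ICF sample 3 it was 6.73. Each comparison gave p = 0.1 in an exact two-sided permutation test, which is the smallest that 3 samples against 3 allow. Id2 held 27.3% to 33.8% in the control and 29.3% to 35.0% with ICF, which overlapped (exact permutation test, p = 1). Id4 contributed 4.03% to 4.30% in the control and 4.33% to 4.51% with ICF. The ratio of Id3 to Id1, chosen after the levels were seen, stood at 0.865, 0.943 and 0.711 in control samples and at 1.19, 1.24 and 1.15 under ICF. By length of merged exons, Id1 therefore exceeded Id3 in each control sample, and Id3 exceeded Id1 in each ICF sample. The merged exons of Id3 span 1791 bases and its longest transcript 1278, while Id1 has 1160 by either. The size of the shares and this crossing thus depend on the length used. The higher ratio of Id3 to Id1 under ICF does not.

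**Figure D3:**
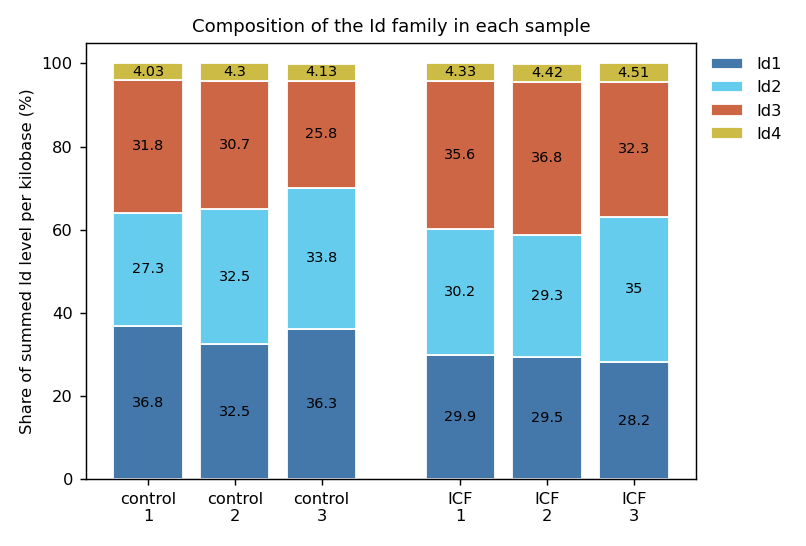
Share of each Id gene in the summed Id level per kilobase of exons (%), one bar for each of the 3 control and 3 ICF samples, with the shares printed in the bars. Id3 holds 25.8% to 31.8% in the control and 32.3% to 36.8% with ICF, while Id1 holds 32.5% to 36.8% and 28.2% to 29.9%.

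Per length, Bmpr1a was the highest of the 9 genes in the control with 18.95 ± 0.47 CPM per kilobase (SD, n = 3). Id1 at 13.8 ± 1.24, Id2 at 12.2 ± 1.32 and Id3 at 11.5 ± 1.19 CPM per kilobase followed, and neighbours in this group overlapped between samples. Bmp4 came next at 8.54 ± 0.66 CPM per kilobase, then Smad1 at 4.40 ± 0.24 and Smad6 at 2.61 ± 0.24. Id4 at 1.63 ± 0.024 and Bmp7 at 1.04 ± 0.24 CPM per kilobase were lowest, and from Id3 downwards no neighbours overlapped. With ICF, Id3 at 15.8 ± 0.50 CPM per kilobase stood second, ahead of Id2 at 14.4 ± 2.05 and Id1 at 13.3 ± 0.17. Id3 and Id2 overlapped there, as did Id2 and Id1. In both groups the order of Id1, Id2 and Id3 depends on the length used, as given above for Id3. With ICF, so does the place of Bmpr1a above Id3, since Bmpr1a has 6351 bases of merged exons and a longest transcript of 5956. Id2 has 2438 bases of merged exons and a longest transcript of 1969. Smad6 at 2.07 ± 0.30 and Id4 at 2.01 ± 0.13 CPM per kilobase, apart in the control, overlapped with ICF.

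**Figure D4:**
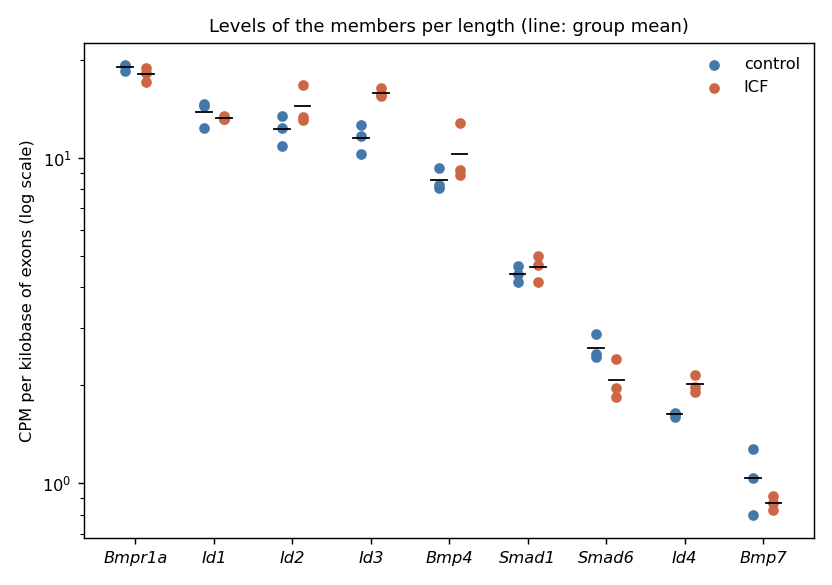
Level of the 9 genes in CPM per kilobase of exons on a log axis, in the order of the control means, with a point per sample (control blue, ICF red) and a line at each group mean. Bmpr1a is highest at 18.95 and Bmp7 lowest at 1.04 in the control. Id3 moves from below to above Id1, which depends on the length used.

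The rest of the pathway was described through 59 further genes grouped by role, of which 49 were tested. In edgeR's test 2 were higher with ICF, Eng and Tbx3, 1 was lower, Skil, and 46 passed in neither direction. These counts stand beside 3.47% and 4.38% of all genes. With the donor block 10 were higher and 3 lower, beside 14.6% and 15.3% of all genes. Of the 49, 10 lay wholly above and 3 wholly below the control, beside 15.6% and 15.7% of all genes, 29 had a positive log2 fold change, and the median was 0.073.

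Eng encodes endoglin, a co-receptor that binds BMP9 and BMP10 and takes part in TGF-β signaling. It was at 28.36, 27.92 and 29.92 CPM in the control and at 44.05, 45 and 45.46 CPM under ICF. The groups were far apart relative to their spread. The log2 fold change was 0.64 (SE 0.066, edgeR, adjusted p = 0.0012), larger than that of any of the 9 genes. The other 8 receptors and co-receptors did not pass, and Bmpr2, the type II partner of Bmpr1a, passed only with the donor block at a log2 fold change of 0.20 (edgeR, adjusted p = 0.31 without and 0.019 with it). ICF sample 3 was the highest for Bmpr2 at 66.28 CPM, and with donor 3 left out the adjusted p was 0.14 (edgeR, without the block). At an unadjusted p under 0.05 in edgeR, 1 of the 9, Eng, was higher and 1, Bmpr1b, lower, beside 12.4% and 13.2% of all genes. The type I receptor gene Bmpr1b was low, at 0.88 and 0.52 CPM on 13 to 29 counts per sample. Its log2 fold change was -0.75, with every ICF sample below every control (edgeR, adjusted p = 0.15 without and 0.1 with the block). Of the other 3 transducers none passed in either fit or by DESeq2, and 0 had an unadjusted p under 0.05, with Smad4 at -0.014 (edgeR, adjusted p = 0.91) and Smad5 at 0.073 (edgeR, adjusted p = 0.51) on the log2 scale. Per length, Smad4 at 29.3 CPM per kilobase in the control stood above Smad5 and Smad9 and also above Smad1.

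Among the 7 tested of 12 further ligands none passed without the block or by DESeq2, and 1, Gdf6, was higher at an unadjusted p under 0.05 in edgeR. With the block it passed upwards, from 0.96 to 1.71 CPM (log2 fold change 0.83, edgeR, adjusted p = 0.10 without and 0.011 with the block). Bmp6, the highest of these ligands per length in the control, passed downwards at -0.31 (edgeR, adjusted p = 0.31 and 0.0096). The shares of all genes were 12.4% higher at an unadjusted p under 0.05, and 14.6% higher and 15.3% lower with the block. ICF sample 3 was the lowest for Bmp6 at 8.975 CPM, against 13.47 and 15.34 CPM in the other ICF samples, and with donor 3 left out the adjusted p was 0.12 (edgeR, without the block).

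Secreted antagonists bind BMP ligands or related TGF-β ligands and keep them from their receptors. Of 14 listed, 12 were tested and none passed edgeR's test without the block, with 3 higher at an unadjusted p under 0.05 and 1 higher by DESeq2. With the block 4 were higher. Of all genes, 12.4% were higher at that unadjusted p, 5.95% by DESeq2 and 14.6% with the block. Among them were Grem1 at 0.50 (edgeR, adjusted p = 0.17 without and 0.00093 with the block), Fst at 0.38 (0.21 and 4.8e-06) and Bmper at 0.19 (0.13 and 0.025), all as log2 fold changes and adjusted p from edgeR. Fst encodes follistatin, which binds activin more tightly than BMPs, and Bmper can act for or against BMP signaling. Fst was at 69.7, 66.21 and 44.87 CPM in the control and 80.38, 92.06 and 63.38 CPM under ICF, with donor 3 lowest in both groups. The summed level of the antagonists was 176.4 to 206.7 CPM in the control and 210.7 to 242.4 CPM under ICF. Fst alone gave 60.3 and 78.6 CPM of this sum in the group means, and its own groups overlapped.

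Of the 6 intracellular and membrane inhibitors, Skil, which encodes the Smad corepressor SnoN, was lower. It was at 159, 163.3 and 179 CPM in the control and at 107.8, 101.9 and 145.8 CPM under ICF. All ICF samples were below all controls, with ICF sample 3 nearest to them. The log2 fold change was -0.50 (SE 0.13, edgeR, adjusted p = 0.048), and the call was lost in 5 of the 6 fits that left out 1 sample and kept without ICF sample 3 (edgeR, adjusted p = 0.0014). Bambi, a decoy receptor, had a log2 fold change of -0.31 and passed with the donor block (edgeR, adjusted p = 0.21 without and 0.0075 with it) and with donor 3 left out (edgeR, adjusted p = 0.035). In this role 1 was lower without the block and 2 with it, beside 4.38% and 15.3% of all genes. The fit without donor 3 called 2627 of 16893 genes lower. Smad7, the inhibitory Smad of both branches, had a log2 fold change of -0.14 (edgeR, adjusted p = 0.35), and Ski, the related corepressor and the highest of this role per length, one of 0.12 (edgeR, adjusted p = 0.25).

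Of 12 further BMP target genes, 9 were tested and Tbx3, a T-box factor of early embryo and limb, was higher. It was at 96.04, 105.8 and 109.6 CPM in the control and at 130.3, 131.4 and 147.7 CPM under ICF. The groups did not overlap, and the log2 fold change was 0.39 (SE 0.076, edgeR, adjusted p = 0.018). The adjusted p was 0.085 without control sample 1 and 0.084 without control sample 2 (edgeR). Runx2, a regulator of bone formation, had a log2 fold change of 0.58 at a low level of 2.076 to 3.743 CPM and passed with the donor block (edgeR, adjusted p = 0.092 without and 0.016 with it) and with donor 3 left out (edgeR, adjusted p = 0.04). Msx1 and Msx2, homeobox genes of the same class of targets, did not pass, at -0.33 (edgeR, adjusted p = 0.42) and 0.15 (edgeR, adjusted p = 0.64) on the log2 scale. Of the 9, 1 was higher without the block, 2 at an unadjusted p under 0.05 and 2 with the block. Over all genes tested, 3.47%, 12.4% and 14.6% were higher in these ways, and the fit without donor 3 called 2466 of 16893 higher. Of the E proteins that Id proteins bind, Tcf12 had a log2 fold change of 0.28 (edgeR, adjusted p = 0.072 without and 0.00012 with the block). It also passed by DESeq2, and in edgeR without the block under the looser filter (adjusted p = 0.03), with donor 3 left out (0.00031) and without control sample 3 (0.028). Tcf3, the highest of these per length at 54.0 CPM per kilobase, had a log2 fold change of -0.033 (edgeR, adjusted p = 0.84).

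**Figure D5:**
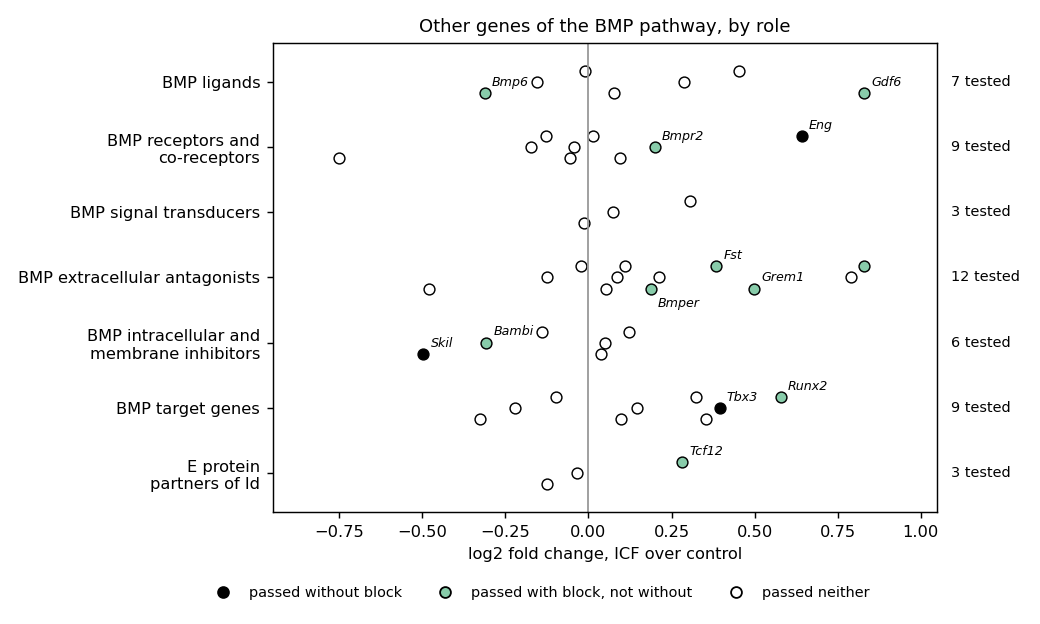
Log2 fold change, ICF over control, of the 49 tested genes of the rest of the pathway in rows by role, with filled black points for genes that passed edgeR's test without a block, green for those that passed with the donor block and not without it, and open points for the others. Eng and Tbx3 lie to the right and Skil to the left, and 10 further genes are green, labelled where the text names them.

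Levels of cell type markers were also compared between the groups. The summed level of 10 mesenchymal and fibroblast markers, the cell type of the feeder cells and of the reprogrammed fibroblasts, was 369.8 to 426 CPM in the control and 434.3 to 452.5 CPM under ICF. The ranges did not overlap. Most of this sum came from Pdgfra, which is also a primitive endoderm gene, and Vim. They had log2 fold changes of 0.033 and 0.14 and passed neither without the block (edgeR, adjusted p = 0.75 and 0.30) nor with it (edgeR, adjusted p = 0.66 and 0.052). Of the 9 tested, 8 had a positive log2 fold change and 4 lay wholly above the control, beside 8437 of all 16729 genes and 15.6% of them. The highest control and lowest ICF samples were close for Pdgfra (181.7 and 182 CPM), Twist1 (12.01 and 12.11) and Vim (172.7 and 174.5). For Col1a1 they were at 18.08 and 24.16 CPM. Col1a1 passed upwards (log2 fold change 0.75, edgeR, adjusted p = 0.022), 2 (Col1a1 and Twist1) were higher at an unadjusted p under 0.05, and 3 (these and Col1a2) were higher with the donor block. Over all genes tested, 3.47%, 12.4% and 14.6% were higher in these 3 ways. Lum was near 0 in all samples, and Dcn was at 8.98 ± 2.21 and 8.28 ± 1.67 CPM (SD, n = 3). Of 6 endoderm markers Sox17 passed downwards (log2 fold change -0.34, edgeR, adjusted p = 0.045), and the other 5 had positive log2 fold changes. Gata6 and Cxcr4 lay wholly above the control and were higher at an unadjusted p under 0.05 and with the donor block (edgeR, adjusted p = 0.0061 and 0.011). The summed level of the 6 overlapped at 355.1 to 372.4 and 350.6 to 390.5 CPM. None of the 8 pluripotency, 5 tested neural or 4 tested mesoderm markers passed edgeR's test without the block. At an unadjusted p under 0.05 in edgeR 1 pluripotency marker (Dppa5a), 1 neural marker (Tubb3) and 1 mesoderm marker (Tbx6) were lower and 1 neural marker (Nes) was higher, and DESeq2 called 1 pluripotency marker lower and 1 neural marker higher. With the donor block 2 pluripotency markers (Dppa5a and Klf4), 1 neural marker (Tubb3) and 2 mesoderm markers (Eomes and Tbx6) were lower. In that fit 1 neural marker (Nes) was higher, beside 14.6% of all genes higher and 15.3% lower. The summed levels of these lists overlapped too, at 2856 to 3345 and 2710 to 3073 CPM, 111.8 to 121.1 and 106.2 to 115.3 CPM, and 58.92 to 100.7 and 53.95 to 89.75 CPM. The part of cell make-up in the changes of Id3, Eng, Tbx3 and Skil was not tested.

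The genes whose levels most resembled 3 of the Id genes were sought among 9772 tested genes with a mean of at least 10 CPM, by Pearson's r of log2 CPM over the 6 samples. For Id3 they were Lage3 (r = 0.997), Nodal (0.996), a TGF-β superfamily ligand of the Activin branch, and Inpp5e (0.992), and 427 candidates had an r above 0.9. Nodal passed the test itself (log2 fold change 0.37, edgeR, adjusted p = 0.02). Nearest to Id2 were Ids (r = 0.995), Rbm6 (0.995) and Zc3h15 (0.994), among 846 candidates above 0.9. For Id1 they were Wdr45b (r = 0.959), Tcea3 (0.931) and Klhl22 (0.909), and just 5 candidates exceeded 0.9. The 6 points share their libraries and their groups, so these values are a description.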

How the data were processed

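RNA sequencing was done on 3 ICF and 3 control samples with strand-specific mRNA libraries and 75-cycle single reads. Per the labels and the study's methods, the authors used bcl2fastq 2.19, FastQC, Trimmomatic, HISAT2 and HTSeq, and the deposited values are whole-number counts per gene without normalization. The submitters' processing notes list the builds hg38 and GRCm38, and the annotation is not given in the sources used here. HTSeq leaves out reads with several alignments. Reads naming no gene were 38.1% to 40.3% of each library and stayed out of all totals.

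Identifiers were named through GENCODE M21, which held 50376 of 50686. The count test was edgeR 4.0.16 under R 4.3.3 (TMM scaling, filterByExpr by group, glmQLFit and glmQLFTest, Benjamini-Hochberg over all genes, threshold 0.05), after the procedure was tested on simulated data. The SE is the size of the log2 fold change divided by the square root of the F statistic of that fit, and intervals use its degrees of freedom. CPM and CPM per kilobase of merged exons were computed from the counts. Log2 CPM for correlations used a prior count of 0.5. Values of single samples were also compared by exact permutation tests. The donor number was used as a block because it names a donor in both groups. Deviations from group means correlated at r = 0.128, 0.174 and 0.319 for samples of the same number and at -0.305 to 0.229 for others. Alternatives were RLE factors, DESeq2 1.42.0, looser and stricter filters, the block, ICF sample 3 divided by 4, donor 3 left out, and each sample left out. Named were all 9 genes, listed pathway genes past the threshold in either edgeR fit or highest in their role, and the 3 genes most like Id1, Id2 and Id3. Of the listed pathway genes past the threshold, 1 is not reported here by name. Bmpr1b, Msx1, Msx2, Smad5 and Smad7 were added after values were seen. The members and lists were chosen with earlier results of these data known. Promoter windows came from RefSeq.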

Additional observations from a re-analysis of the deposited data

How the results depend on the processing

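The log2 fold changes of all 9 genes kept their direction under each alternative run. The call of Id3 held under the other normalization, DESeq2, both filters, the division by 4, the donor block and the fit without donor 3, and was lost in 3 of 6 fits that left out 1 sample. Without ICF sample 3 the call of Id3 held.

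Of all genes, 580 were higher and 733 lower, against 2445 and 2561 with the donor block, 2466 and 2627 without donor 3, and 877 higher with DESeq2. Leaving out 1 sample at a time gave 85 to 724 higher and 215 to 928 lower, the counts under the full ones coming without control samples 1 or 2 or ICF samples 1 or 2. Of the 9 genes, 1 was higher and 0 lower, against 3 and 1 with the block, 1 lower without donor 3, and 0 to 1 higher when 1 sample was left out. Of the 49 further pathway genes, 2 were higher and 1 lower, against 10 and 3 with the block, 9 and 3 without donor 3, 4 higher with DESeq2 and 5 with the looser filter. Leaving out 1 sample gave 1 to 4 higher and 0 to 1 lower. The cause of these shifts was not tested. The block changed no other call among the 9 genes than those given beside them. With 3 samples per group and changes this small, the fits resolve little below the intervals given.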
